A study of Mus musculus with 14 samples.

Results

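The CXC chemokines that macrophages can make were described here through 8 genes, Cxcl1, Cxcl2, Cxcl3, Cxcl9, Cxcl10, Cxcl12, Cxcl14 and Cxcl16. They were found on Agilent mouse arrays as the probes whose transcript accession leads to one of these symbols, which gave 10 of 41174 probes. All 8 genes were among the 21967 features tested, called genes below. Cxcl12 and Cxcl16 each had 2 probes, and the brighter usable probe stood for the gene.

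The arrays asked how macrophages in the injured brain differ by arginase-1, and how they differ from the monocytes of the blood. Arg1+ brain macrophages were on 4 arrays and Arg1- brain macrophages on 4, each taken 1 day after traumatic brain injury (TBI), made by controlled cortical impact. Post-TBI blood monocytes, also taken at 1 day, were on 3 arrays. Normal blood monocytes, from mice with no treatment, were on 3 arrays. All mice were males of the YARG strain, which carries a fluorescent reporter at the Arg1 locus, aged 12 to 16 weeks. No sham-operated group was analysed here, and there was no macrophage group from an uninjured brain. Per the labels, antibodies used for the sort included CD45, CD11b and Ly6G. Each sort was profiled in bulk, so fewer cells of a type and less RNA per cell cannot be told apart. The labels do not say that replicates are separate animals, so the p-values measure only the spread between these samples, which may be technical.

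Chemokines are small secreted proteins that guide leukocytes along gradients, and the CXC family is named for the spacing of its conserved cysteines. Cxcl1, Cxcl2 and Cxcl3 bind Cxcr2 and draw neutrophils, and inflammatory signals that pass through NF-kB switch them on. Cxcl9 and Cxcl10 bind Cxcr3 and draw activated T and NK cells, and interferons induce them. Cxcl12 acts on Cxcr4 and holds or guides many cell types, Cxcl14 is made in many resting tissues, and Cxcl16 is made as a membrane-bound form that is shed and acts on Cxcr6.

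A level is given here as the log2 of an array's processed signal over the 75th percentile of that array. A level of 0 is therefore that percentile, and -4.32 is the floor set for the dimmest signals. Levels compare 1 probe between arrays and do not rank genes against each other. Across the 14 arrays, 50.4% to 68.69% of spots were well above background and no spot was saturated. Arg1 itself was higher in Arg1+ than in Arg1- cells by 3.25 ± 0.43 on the log2 scale (limma adjusted p = 0.000526), where Arg1+ replicate 2 had no usable spot. Of 9 macrophage and monocyte markers, 8 were measured, and their summed signal was 179 to 239 times the 75th percentile in Arg1+ cells, 177 to 221 in Arg1- cells, 203 to 280 in post-TBI monocytes and 106 to 231 in normal monocytes. Slides 1 to 3 each held 1 array of every group, and slide 4 held only a brain pair, Arg1+ replicate 2 and Arg1- replicate 3.

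The promoters of the neutrophil attractants are shown because these 3 genes share a receptor, 2 of them being called between the brain groups and the other in blood. RefSeq (GRCm38.p6) gave a window from 250 bases before to 50 bases after the start for 7 of the 8 genes, Cxcl16 being the other. The stretches below run from base -110 to base -1 before the start, 5′ to 3′ on the strand of the gene, and the capitals mark matches to the NF-kB consensus, searched on both strands. Cxcl1 (chr5:90891135-90891244, + strand), Cxcl2 (chr5:90903789-90903898, + strand) and Cxcl3 (chr5:90785991-90786100, + strand) lie close together on chromosome 5.
Cxcl1: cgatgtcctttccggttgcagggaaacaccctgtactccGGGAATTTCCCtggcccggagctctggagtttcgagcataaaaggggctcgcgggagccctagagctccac
Cxcl2: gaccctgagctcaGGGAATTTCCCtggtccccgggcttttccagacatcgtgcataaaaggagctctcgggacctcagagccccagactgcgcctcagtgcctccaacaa
Cxcl3: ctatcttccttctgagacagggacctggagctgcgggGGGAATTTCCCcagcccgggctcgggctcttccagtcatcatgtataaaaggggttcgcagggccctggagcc

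All 3 held the same 11-base run, starting at base -71 in Cxcl1, -97 in Cxcl2 and -73 in Cxcl3. The run holds 2 overlapping matches to the consensus, 1 on each strand. It was found in 14 of 32851 promoter windows (0.0426%), a motif chosen after these sequences were seen. The NF-kB consensus itself was in 4.51% of windows and, among the 7 windows at hand, in those of Cxcl1, Cxcl2, Cxcl3 and Cxcl10.

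The window of Cxcl10 is shown because it holds matches to both an NF-kB and an interferon motif. Its stretch from base -220 to base -81 (chr5:92348970-92349109, - strand) is printed 5′ to 3′ on the strand of the gene, with both kinds of match in capitals.
Cxcl10: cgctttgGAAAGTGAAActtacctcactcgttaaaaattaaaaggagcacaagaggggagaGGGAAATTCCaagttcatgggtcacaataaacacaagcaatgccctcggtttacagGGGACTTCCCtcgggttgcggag

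The NF-kB consensus matched at -159 and -103. The core of the interferon-stimulated response element, searched on both strands, matched at -213 on the opposite strand. That core was in 3.44% of all windows, and Cxcl14 was the other member that held it, at -172. TTCNNNGAA, searched on both strands as the site of activated STAT dimers, was in 8.3% of windows and in that of Cxcl14 alone among the members. TGANTCA, searched on both strands as the AP-1 site, was in 7.81% of windows and in those of Cxcl9 and Cxcl10. None of these motifs was in the window of Cxcl12. A match is a description of the letters and does not show that a factor binds there.

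Of the neutrophil attractants, Cxcl3 was detected in the brain groups alone. Its levels were 4.53, 3.65, 2.84 and 2.93 on Arg1+ replicates 1 to 4, against 1.77, 1.54, 0.35 and 0.90 on Arg1- replicates 1 to 4. On all 3 post-TBI and all 3 normal monocyte arrays it was at the floor and not well above background. Every Arg1+ array was thus above every Arg1- array. The difference between Arg1+ and Arg1- cells was 2.35 ± 0.35 on the log2 scale, or 5.1-fold (limma adjusted p = 0.000995). Against post-TBI monocytes, Cxcl3 was at least 224-fold higher in Arg1+ cells (limma adjusted p = 6.3e-10) and at least 44-fold higher in Arg1- cells (limma adjusted p = 5.46e-08). Such a bound sets the mean of the bright group against the lowest signal that counted as above background on the dim arrays, on the scale used here. On all 3 post-TBI arrays that lowest signal was the floor itself, -4.32. These 2 bounds therefore rest on the floor chosen and hold on this scale alone. After normexp background correction the log2 differences were smaller, at 5.57 in Arg1+ and 3.46 in Arg1- cells.

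Cxcl1 had levels of 3.02, 0.37, 1.06 and 1.40 on Arg1+ replicates 1 to 4, against 0.51, -1.72, -0.85 and -0.42 on Arg1- replicates 1 to 4. It was well above background on 1 of 3 post-TBI monocyte arrays, replicate 1, where no level exceeded -3.93, and on none of the normal ones. The 2 brain groups overlapped, since Arg1+ replicate 2 lay below Arg1- replicate 1. Their difference was 2.08 ± 0.49, or 4.24-fold (limma adjusted p = 0.0225). That call was lost without Arg1- replicate 2 (difference 1.72, adjusted p = 0.0665), without Arg1- replicate 3 (adjusted p = 0.0709) and without Arg1+ replicate 4 (adjusted p = 0.0545). Against post-TBI monocytes Cxcl1 was higher in Arg1+ and in Arg1- cells (limma adjusted p = 8e-07 and 0.000111). With all 3 post-TBI arrays at or near the floor, its size moved with the processing. It was 5.65 in Arg1+ and 3.57 in Arg1- cells as fitted, 3.46 and 1.84 after normexp background correction, and 6.03 and 3.94 with a floor at 0.01, with both calls kept.

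Cxcl2 was the one neutrophil attractant detected in every group. Its levels were 4.52, 3.18, 2.99 and 3.07 on Arg1+ replicates 1 to 4, against 2.73, 2.27, 1.88 and 2.39 on Arg1- replicates 1 to 4. On post-TBI monocytes it was at -1.64, -1.38 and -0.53 (replicates 1, 3 and 4), against -4.32, -3.72 and -3.25 on normal monocytes (replicates 2, 3 and 4), of which replicate 3 alone was well above background. The 4 groups therefore fell into 4 ranges with no overlap, Arg1+ cells highest and normal monocytes lowest. The step between Arg1+ and Arg1- cells, 1.12 ± 0.35, did not pass the test (limma adjusted p = 0.0817). Without post-TBI replicate 4, which enters the fit only through the shared spread, it passed at an adjusted p of 0.049. Against post-TBI monocytes Cxcl2 was higher by 4.62 ± 0.38 in Arg1+ cells and by 3.50 ± 0.38 in Arg1- cells (limma adjusted p = 1.77e-07 and 5.26e-06).

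**Figure D1:**
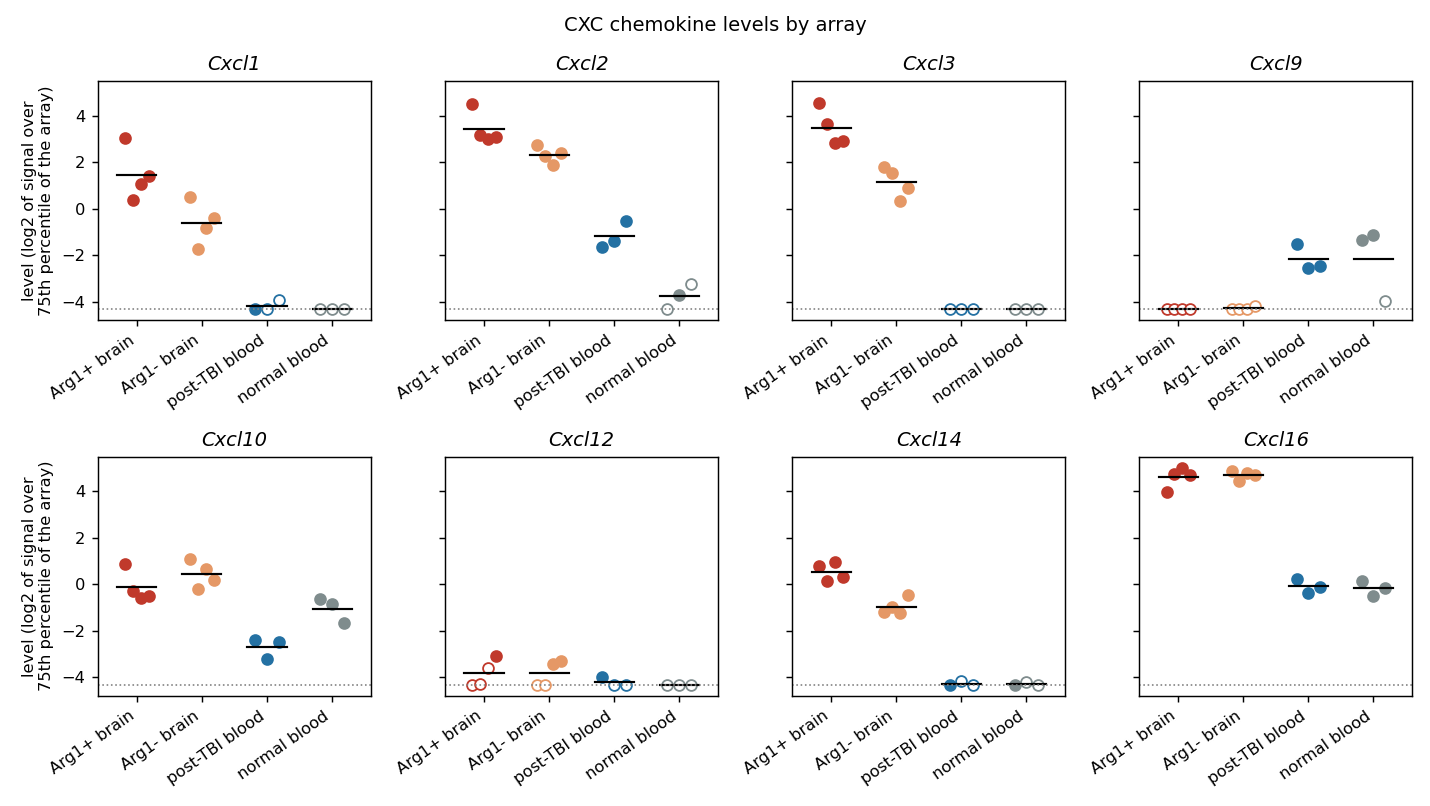
Levels of the 8 CXC chemokines on each array, on a log2 scale relative to the 75th percentile of the array (y axis), by group (x axis). Points are arrays, filled where the spot was well above background and open where it was not; bars are group means and the dotted line is the floor at -4.32. Cxcl3 stands at the floor on all 6 monocyte arrays, and Cxcl9 is open on all 8 brain arrays.

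In blood, Cxcl2 was 5.98-fold higher in post-TBI than in normal monocytes (2.58 ± 0.40 on the log2 scale, limma adjusted p = 0.0191). The difference was 2.94, 2.72 and 2.08 within slides 1, 2 and 3, and with the slide as a block its adjusted p was 0.0275. The call was lost without normal replicate 2 (adjusted p = 0.122), without post-TBI replicate 3 (adjusted p = 0.0777) and without post-TBI replicate 4 (adjusted p = 0.0842). It was also lost after normexp background correction (difference 1.22, adjusted p = 0.287) and in the authors' table (difference 1.48, adjusted p = 0.205), each a smaller value by more than 1.5 times. Cxcl2 was the only member called of 8 in this comparison, where 0.15% of all genes were called, 0.109% higher and 0.041% lower, and where 4.49% were higher without overlap. None was called lower by limma, and at an unadjusted p under 0.05 there was 1 higher and 1 lower, Cxcl10.

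The 3 neutrophil attractants did not differ between Arg1+ and Arg1- cells by the same amount on each slide. Arg1+ minus Arg1- within slides 1 to 4 was 3.63, 1.07, 1.40 and 3.30 for Cxcl3. It was 3.44, 0.55, 3.13 and 1.22 for Cxcl1. It was 2.13, 0.25, 0.80 and 1.30 for Cxcl2. All 12 differences were above 0, slide 2 gave the smallest for each gene, and slide 1, with Arg1+ replicate 1, gave the largest for each. With the slide as a block the adjusted p was 0.00203 for Cxcl3, 0.0132 for Cxcl1 and 0.066 for Cxcl2, so no call changed.

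Whether these ligands differed by unequal amounts was tested on the 8 brain arrays, in 4 pairs. The difference for Cxcl3 exceeded that for Cxcl2 by 1.23 (exact two-sided permutation p = 0.0286, the smallest that 4 arrays against 4 can give). Adjusted over the 4 pairs the p was 0.114. The difference for Cxcl2 was below that for Cxcl1 by 0.96 on average (a value of -0.96, exact permutation p = 0.114, adjusted p = 0.228), and Cxcl3 minus Cxcl1 was 0.27 (exact permutation p = 0.457). The remaining pair, Cxcl10 and Cxcl9, gave no test of unequal amounts, since Cxcl9 was below background on all 8 arrays. None of the other 3 pairs passed after adjustment over 4. A pair that alone reaches the smallest p cannot go below 0.114 after that adjustment. The adjusted test therefore could not decide the question for Cxcl3 and Cxcl2.

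**Figure D2:**
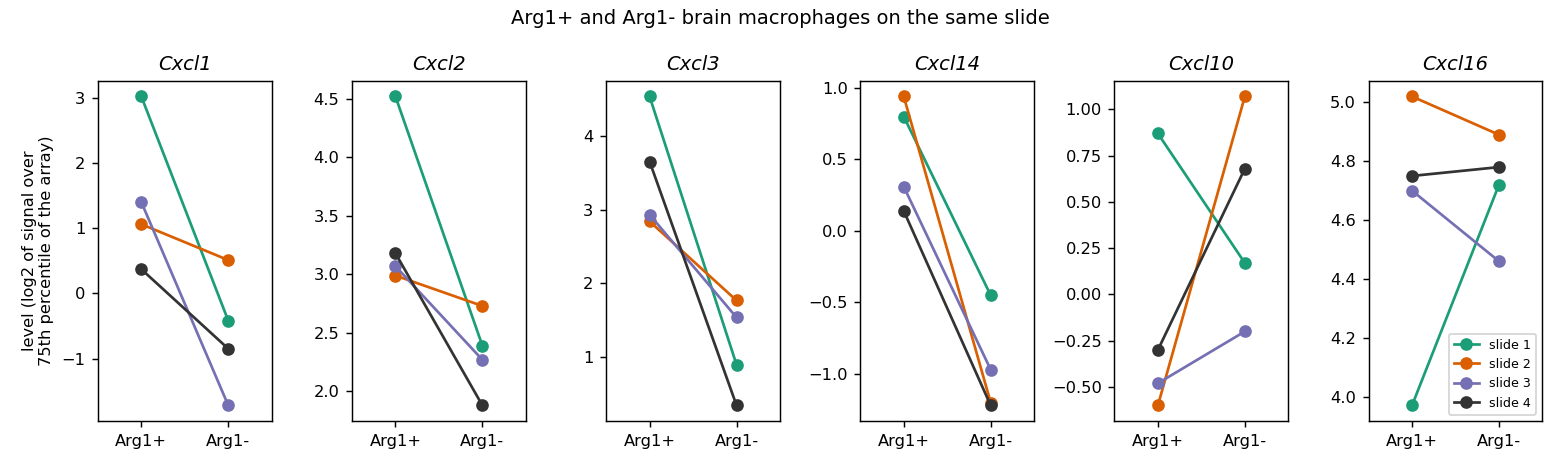
Levels of 6 members (y axis, log2 relative to the 75th percentile of the array, with a scale of its own in each panel) in Arg1+ and Arg1- brain macrophages (x axis), joined by slide. The lines of Cxcl1, Cxcl2, Cxcl3 and Cxcl14 all drop to the right, while those of Cxcl10 and Cxcl16 run both ways.

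Neutrophil markers moved the other way between the brain groups, where 2.9% of all genes were called lower in Arg1+ cells and 2.14% higher. Of 12 measured neutrophil markers on a list of 13, 8 were lower in Arg1+ than in Arg1- cells and 1, Mmp8, was higher. Their summed signal was 6.49 to 16 times the 75th percentile in Arg1+ cells, 32.1 to 141 in Arg1- cells, 18 to 99.3 in post-TBI monocytes and 6.82 to 31.3 in normal monocytes, and Elane was not above background on any Arg1+ array. Dendritic cells had a list of 8 markers, of which 5 were measured and 4 were lower in Arg1+ than in Arg1- cells. Sums over that list were 0.322 to 0.448 in Arg1+ cells, 3.71 to 5.38 in Arg1- cells, 1.66 to 1.82 in post-TBI monocytes and 1.21 to 3.21 in normal monocytes. Kmo was the dendritic cell marker not above background on any Arg1+ array. Against post-TBI monocytes Arg1- cells had 7 of the 12 neutrophil markers higher and 2 lower, and Arg1+ cells 1 higher and 4 lower. Among all genes 17% were called higher and 16.4% lower in Arg1- cells, and 19.9% and 20% in Arg1+ cells. The part of neutrophils and dendritic cells in the chemokine differences was not tested.

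Cxcl14 separated the brain groups and was near the floor in blood. Its levels were 0.80, 0.14, 0.94 and 0.31 on Arg1+ replicates 1 to 4, against -1.20, -0.97, -1.22 and -0.45 on Arg1- replicates 1 to 4. In blood it was well above background on 1 of 3 post-TBI and 1 of 3 normal arrays, with no level above -4.17. Every Arg1+ array was above 0 and every Arg1- array below it.

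The difference in Cxcl14 between Arg1+ and Arg1- cells was 1.51 ± 0.23, or 2.84-fold (limma adjusted p = 0.00146). Within slides 1 to 4 it was 1.25, 2.14, 1.28 and 1.36, and with the slide as a block the adjusted p was 0.000716. Against post-TBI monocytes Cxcl14 was higher in Arg1+ and in Arg1- cells (limma adjusted p = 1.45e-09 and 1.67e-07). The size of that difference rests on 1 blood array above background and on the floor. It was 4.82 in Arg1+ and 3.31 in Arg1- cells as fitted, 2.61 and 1.51 after normexp background correction, and 3.07 and 1.82 in the authors' table, with both calls kept. The call of Cxcl14 between the brain groups held under all 25 other settings, with values from 1.10 to 1.68.

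With Cxcl1, Cxcl3 and Cxcl14, 3 of 8 members were called higher in Arg1+ than in Arg1- cells, where 5.04% of all genes were called, 2.14% higher and 2.9% lower. None was called lower by limma, and at an unadjusted p under 0.05 there were 4 higher and 0 lower. The groups did not overlap for 3 members, Cxcl2, Cxcl3 and Cxcl14, all higher in Arg1+ cells, while 7.49% of all genes were higher without overlap. The median difference was 0.57 over the 8 members and 0 over all genes. The 5 members not called were Cxcl2, Cxcl9, Cxcl10, Cxcl12 and Cxcl16.

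Cxcl16 separated brain from blood and not the brain groups from each other. Its levels were 3.97, 4.75, 5.02 and 4.70 on Arg1+ replicates 1 to 4, against 4.89, 4.46, 4.78 and 4.72 on Arg1- replicates 1 to 4. It was at 0.23, -0.36 and -0.12 on post-TBI monocytes (replicates 1, 3 and 4), against 0.16, -0.52 and -0.17 on normal monocytes (replicates 2, 3 and 4). The brain groups overlapped each other, as did the blood groups, and every brain array was above every blood array.

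The difference in Cxcl16 between Arg1+ and Arg1- cells was -0.10 ± 0.22 (limma adjusted p = 0.913), with within-slide values of -0.75, 0.13, 0.24 and -0.02. Between post-TBI and normal monocytes it was 0.09 ± 0.25 (limma adjusted p = 1). Against post-TBI monocytes Cxcl16 was 25.9-fold higher in Arg1+ cells (4.70 ± 0.24, limma adjusted p = 9.21e-10) and 27.8-fold higher in Arg1- cells (4.80 ± 0.24, limma adjusted p = 1.43e-09). The second Cxcl16 probe gave the same signs, with smaller differences from blood. On it, brain minus post-TBI monocytes was 2.05 for Arg1+ and 2.37 for Arg1- cells, and Arg1+ minus Arg1- was -0.32.

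The interferon-induced pair went opposite ways between brain and blood. Cxcl10 was at 0.87, -0.30, -0.60 and -0.48 on Arg1+ replicates 1 to 4, against 1.07, -0.20, 0.68 and 0.17 on Arg1- replicates 1 to 4. It was at -2.41, -3.23 and -2.49 on post-TBI monocytes (replicates 1, 3 and 4), against -0.62, -0.84 and -1.67 on normal monocytes (replicates 2, 3 and 4). All arrays were well above background, the brain groups overlapped, and the post-TBI monocytes were the lowest of the 4 groups.

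Cxcl10 was 5.99-fold higher in Arg1+ cells than in post-TBI monocytes (2.58 ± 0.39, limma adjusted p = 9.15e-05) and 8.83-fold higher in Arg1- cells (3.14 ± 0.39, limma adjusted p = 2.16e-05). After normexp background correction these differences were 1.47 and 1.91, with both calls kept. Arg1+ minus Arg1- was -0.56 ± 0.36 (limma adjusted p = 0.495), and slide 1, at 0.70, ran against slides 2 to 4, at -1.67, -0.28 and -0.99. Post-TBI minus normal monocytes was -1.67 ± 0.42 and did not pass the test (limma adjusted p = 0.214). The blood groups nevertheless did not overlap, as for 4.77% of all genes in that direction, and the within-slide values were -2.61, -0.82 and -1.57.

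Cxcl9 was detected in blood and not in brain. It was well above background on none of the 8 brain arrays, where its highest level was -4.19. On post-TBI monocytes it was at -1.53, -2.54 and -2.48 (replicates 1, 3 and 4), against -1.34, -1.14 and -3.97 on normal monocytes (replicates 2, 3 and 4), of which replicate 4 was not well above background. The blood groups overlapped, and their difference was -0.03 ± 0.53 (limma adjusted p = 1).

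Cxcl9 was at least 3.81-fold lower in Arg1+ cells than in post-TBI monocytes (limma adjusted p = 0.00303) and at least 4.11-fold lower in Arg1- cells (limma adjusted p = 0.00429). Like those of Cxcl3, these bounds hold on the scale used here alone. The Arg1+ call was lost after normexp background correction (difference -0.63, adjusted p = 0.0529), which is a smaller value by more than 1.5 times. In Arg1- cells the difference after normexp was -0.77, with the call kept. In the authors' table the differences were -1.23 in Arg1+ and -1.05 in Arg1- cells, with both calls kept. Markers of T and NK cells, in which interferon gamma is chiefly made, were lower in the brain sorts. Of all genes, 20% were called lower in Arg1+ cells than in post-TBI monocytes, and 16.4% in Arg1- cells. Of these markers, 6 of 9 measured on a list of 10 were lower in Arg1+ cells, and 4 of 9 in Arg1- cells. Their sums were 0.579 to 0.763 in Arg1+ cells, 1.26 to 2.59 in Arg1- cells, 1.71 to 3.13 in post-TBI monocytes and 1.52 to 4.42 in normal monocytes. Cd3g, Klrb1c, Gzma and Nkg7 were not above background on any Arg1+ array, and Klrb1c and Gzma on any Arg1- array. B cell markers were lower for 6 of 7 in Arg1+ and 7 of 7 in Arg1- cells, with sums of 2.39 to 2.91 in Arg1+ cells, 1.87 to 2.25 in Arg1- cells, 6.42 to 6.48 in post-TBI monocytes and 4.73 to 5.65 in normal monocytes. Ms4a1 was the B cell marker not above background in either brain group. The part of these lymphocytes in the Cxcl9 result was not tested.

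Cxcl12 was at or near background throughout. Its usable probe was well above background on 1 of 4 Arg1+, 2 of 4 Arg1-, 1 of 3 post-TBI monocyte and 0 of 3 normal monocyte arrays, and its highest level was -3.10. The other probe was at the floor on all 14 arrays. No comparison of Cxcl12 passed the test, with differences of 0.01 ± 0.30 between the brain groups and 0.39 ± 0.32 between Arg1+ cells and post-TBI monocytes (limma adjusted p = 1 and 0.376).

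Against post-TBI monocytes, 6 of 8 members were higher and 1, Cxcl9, was lower in Arg1+ cells, where 39.9% of all genes were called, 19.9% higher and 20% lower. The same 7 members were called the same way in Arg1- cells, where 33.4% of all genes were called, 17% higher and 16.4% lower. Both comparisons use the same 3 post-TBI monocyte arrays. The median difference of the members was 4.66 in Arg1+ and 3.41 in Arg1- cells, beside -0.03 and -0.02 over all genes. On each of slides 1 to 3 these 7 members kept that direction in both brain groups. Arg1+ minus post-TBI monocytes ranged over the slides from 7.16 to 8.85 for Cxcl3, from 4.99 to 7.34 for Cxcl1 and from 3.52 to 5.90 for Cxcl2. It ranged from 4.63 to 5.26 for Cxcl14, from 4.32 to 5.14 for Cxcl16 and from 1.89 to 4.10 for Cxcl10.

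**Figure D3:**
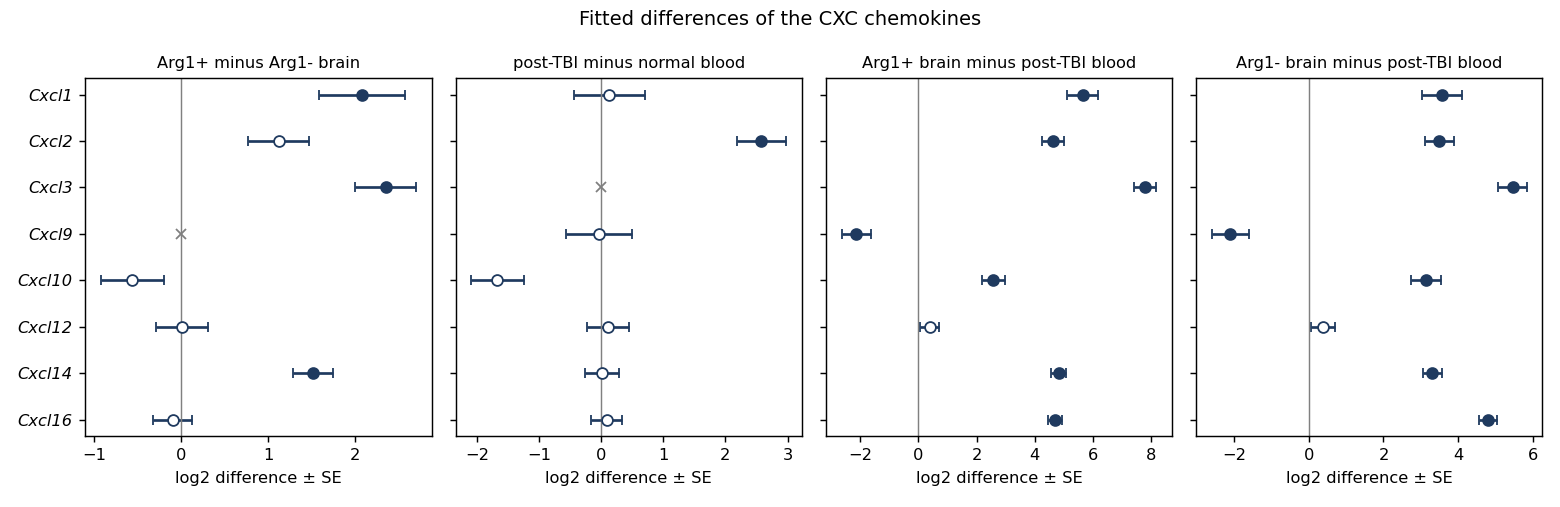
Fitted log2 differences of the 8 members (x axis, ± SE) in the 4 comparisons, filled where the adjusted p was under 0.05 and open where it was not. A cross marks a gene not well above background on any array of either group. Cxcl9 is the only member below 0 among the filled points, at -2.14 and -2.10 in the 2 comparisons with blood.

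Markers of other brain cells also differed between brain and blood, where 19.9% of all genes were called higher in Arg1+ and 17% in Arg1- cells. Microglial markers were higher than in post-TBI monocytes for 7 of 9 measured in Arg1+ cells and 6 of 9 in Arg1- cells, and Cx3cr1 was lower in both. Their sums were 49.6 to 76.6 in Arg1+ cells, 39.6 to 53.6 in Arg1- cells, 23.6 to 27.1 in post-TBI monocytes and 13.4 to 28.1 in normal monocytes, with Siglech not above background in either blood group. Astrocyte markers were higher for 5 of 7 in Arg1+ and 2 of 7 in Arg1- cells, on a list of 8. Their sums were 2.41 to 5.20 in Arg1+ cells, 2.48 to 4.48 in Arg1- cells, 1.17 to 1.55 in post-TBI monocytes and 0.969 to 1.59 in normal monocytes, with Slc1a2, Gja1 and Slc4a4 not above background in either blood group. Between the brain groups 1 of the 7, Gja1, was higher in Arg1+ cells. None of the 9 microglial markers was called there by limma, with 5 higher in Arg1+ cells and 0 lower at an unadjusted p under 0.05.

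Endothelial markers were higher than in post-TBI monocytes for 3 of 8 in Arg1+ and 2 of 8 in Arg1- cells, on a list of 9, and Flt1 was lower in Arg1+ cells. Their sums were 4.41 to 8.81 in Arg1+ cells, 3.40 to 6.79 in Arg1- cells, 3.32 to 5.67 in post-TBI monocytes and 3.07 to 4.41 in normal monocytes, and Kdr and Cdh5 were not above background in either blood group. Neuronal markers were higher for 4 of 8 in Arg1+ and 3 of 8 in Arg1- cells, on a list of 9, and Nefl was also higher in Arg1+ than in Arg1- cells. Their sums were 2.32 to 4.67 in Arg1+ cells, 1.41 to 2.89 in Arg1- cells, 1.47 to 1.63 in post-TBI monocytes and 1.26 to 1.80 in normal monocytes. Snap25 and Nefl were the neuronal markers not above background in either blood group. Of 6 measured oligodendrocyte markers on a list of 7, 2 were higher in Arg1+ and 1 in Arg1- cells. Mobp was higher and Mbp lower in both Arg1+ and Arg1- cells. Their sums ran the other way, at 4.36 to 5.43 in Arg1+ cells, 4.64 to 6.56 in Arg1- cells, 20.8 to 23.9 in post-TBI monocytes and 27.3 to 28.5 in normal monocytes. Each of the 6 was above background on at least 1 array of every group. The endothelial and oligodendrocyte counts, and the astrocyte count in Arg1- cells, lay near the shares of all genes. The part of these cells in the higher chemokine levels of the brain sorts was not tested.

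Of 7 further CXC ligands, 1 was tested, the platelet chemokine Ppbp, which also acts on Cxcr2. Its levels were 3.27, 3.59, 2.59 and 2.60 on Arg1+ replicates 1 to 4, against 0.71, 0.70, -0.19 and -0.05 on Arg1- replicates 1 to 4. It was at 2.09, 2.05 and 2.94 on post-TBI monocytes (replicates 1, 3 and 4), against -0.91, 1.51 and 1.07 on normal monocytes (replicates 2, 3 and 4). Every post-TBI monocyte array lay above every Arg1- array, as was also the case for Cxcl9. Arg1+ minus Arg1- was 2.72 ± 0.43 (limma adjusted p = 0.00181), and Arg1- minus post-TBI monocytes was -2.07 (limma adjusted p = 0.00325).

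Arg1+ cells and post-TBI monocytes differed in Ppbp by 0.65 and did not pass the test, and neither did the blood groups, by 1.80 ± 0.50 (limma adjusted p = 0.313). Among all genes 20% were called lower in Arg1+ and 16.4% in Arg1- cells than in post-TBI monocytes. Of 7 measured platelet markers on a list of 9, 0 were called between Arg1+ and Arg1- cells and 6 were lower in each brain group than in post-TBI monocytes. Their sums were 1.56 to 3.78 in Arg1+ cells, 1.27 to 4.12 in Arg1- cells, 8.61 to 18.7 in post-TBI monocytes and 5.06 to 6.86 in normal monocytes. Gp9 and Gp5 were not above background on any Arg1+ array, nor Gp5 on any Arg1- array, and the part of platelets in Ppbp was not tested. Cxcl5, Cxcl13, Cxcl15 and Cxcl17 were well above background on at most 1 array, Pf4 had too few usable spots, and Cxcl11 had no named probe.

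The receptors of the members were measured for 6 of 8 genes, Cxcr1 and Ackr3 being on no array above background. Cxcr2, the receptor of Cxcl1, Cxcl2 and Cxcl3, ran against its ligands between the brain groups. Its levels were -3.73, -4.30, -4.27 and -3.86 on Arg1+ replicates 1 to 4, with 1 of 4 well above background, against -2.92, -2.00, -2.29 and -3.13 on Arg1- replicates 1 to 4. It was lower in Arg1+ cells by 1.45 on the log2 scale (a difference of -1.45 ± 0.33, limma adjusted p = 0.0186), with no overlap. The call was lost in 7 of 25 other settings, over which the difference ran from -1.76 to -0.11 and the adjusted p reached 0.836. Against post-TBI monocytes Cxcr2 was called higher in Arg1- cells, as were its ligands, with means of -2.59 and -3.69. That call was also lost in 7 of 25 other settings, and Arg1+ cells had no such call. Cxcr2 is also 1 of the neutrophil markers counted above.

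Cxcr3, the receptor of Cxcl9 and Cxcl10, was at the floor on all Arg1+ arrays and at -4.32, -4.31, -3.75 and -4.32 on Arg1- replicates 1 to 4, against -3.52, -3.45 and -2.97 on post-TBI monocytes (replicates 1, 3 and 4). It was at least 1.74-fold lower in Arg1+ cells than in post-TBI monocytes (limma adjusted p = 0.00286), a bound that holds on this scale alone. The call was lost in 1 of 24 other settings, over which the difference ran from -3.17 to -0.11 and the limma adjusted p reached 0.785. Cxcr6, the receptor of Cxcl16, averaged -1.98 ± 0.28 in Arg1+ cells, -1.84 ± 0.36 in Arg1- cells, -0.77 ± 0.73 in post-TBI monocytes and -1.13 ± 0.10 in normal monocytes (SD over 4, 4, 3 and 3 arrays). It was lower than in post-TBI monocytes, with differences of -1.22 ± 0.31 in Arg1+ cells and -1.07 ± 0.31 in Arg1- cells (limma adjusted p = 0.00546 and 0.0146, the second lost in 2 of 25 other settings), the reverse of its ligand.

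Cxcr4, the receptor of Cxcl12, averaged 5.83 ± 0.14 in Arg1+ cells, 5.57 ± 0.20 in Arg1- cells, 5.30 ± 0.48 in post-TBI monocytes and 5.18 ± 0.39 in normal monocytes (SD over 4, 4, 3 and 3 arrays) and was called in no comparison. Cxcr5, the receptor of Cxcl13 on B and helper T cells, was not above background on any brain array. The decoy receptor Ackr1 varied widely among Arg1+ arrays, at -3.49, -2.71, -2.60 and 1.39 on replicates 1 to 4, and was called in no comparison. None of the 6 receptors was called between the blood groups by limma, and 0 of 6 had an unadjusted p under 0.05 there.

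**Figure D4:**
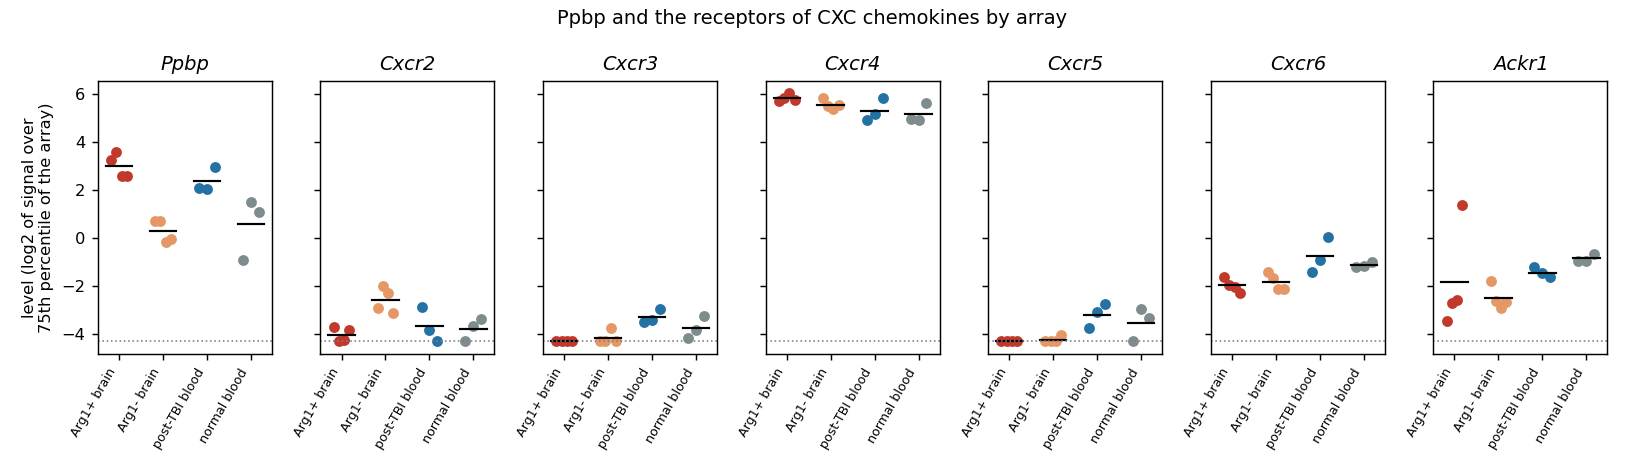
Levels of Ppbp and of 6 receptors of CXC chemokines on each array (y axis, log2 relative to the 75th percentile of the array) by group (x axis), with bars at the group means and the dotted line at the floor. Ppbp is high in Arg1+ cells and post-TBI monocytes, and Cxcr4 lies between 4.90 and 6.03 on all 14 arrays.

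Other genes driven by NF-kB were set beside the neutrophil attractants, in a list of 12 cytokines and inflammatory enzymes of which 9 were measured. Between Arg1+ and Arg1- cells 1 was higher, Nos2, the inducible nitric oxide synthase (1.77 ± 0.32, limma adjusted p = 0.00484), and 1 was lower, the cytokine Il1b (-1.27 ± 0.29, limma adjusted p = 0.0178). The Il1b call was lost in 8 of 25 other settings, with an adjusted p of up to 0.0639, and the Nos2 call in 1, after normexp, where the difference was 0.87. The list's median difference was 0.46, beside 0.57 for the members. Against post-TBI monocytes 7 of 9 were higher in Arg1+ and 8 of 9 in Arg1- cells, with medians of 3.53 and 2.81. Among all genes 19.9% and 17% were called higher there. Il1a, an alarm cytokine, was higher by 4.31 ± 0.31 in Arg1+ and by 3.68 ± 0.31 in Arg1- cells (limma adjusted p = 5.27e-08 and 5.28e-07). In blood, where Cxcl2 was called, 0 of these 9 were called by limma and 0 had an unadjusted p under 0.05.

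The subunits and feedback genes of NF-kB themselves, 11 measured of 13, showed smaller differences. Rel was lower in Arg1+ than in Arg1- cells (-1.03 ± 0.27, limma adjusted p = 0.0391), as the only one called. That call was lost in 14 of 25 other settings, with an adjusted p of up to 0.633. Of all genes, 39.9% were called between Arg1+ cells and post-TBI monocytes, and 33.4% between Arg1- cells and post-TBI monocytes. Not far from those shares, Arg1+ cells had 1 of these 11 genes higher and 4 lower, and Arg1- cells had 3 higher and 2 lower. The higher one in Arg1+ cells was Tnfaip3, which ends NF-kB signalling (1.16 ± 0.30, limma adjusted p = 0.00591).

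For Cxcl9 and Cxcl10, 13 of 15 genes of the interferon gamma pathway and 13 of 14 of the type I interferon pathway were measured. In the gamma list Arg1+ cells had 8 genes lower and 1 higher than post-TBI monocytes, and Arg1- cells had 5 lower and 3 higher. The shares of all genes called lower there were 20% and 16.4%, and higher 19.9% and 17%. Ifngr1, a chain of the interferon gamma receptor, differed from post-TBI monocytes by -2.31 ± 0.23 in Arg1+ and by -1.90 ± 0.23 in Arg1- cells (limma adjusted p = 1.21e-06 and 1.39e-05). Between the brain groups Jak2 and Ciita were lower in Arg1+ cells, with a difference of -4.10 ± 0.30 for Ciita, the switch of MHC class II genes (limma adjusted p = 6.03e-06).

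In the type I list 7 of 13 were higher in Arg1+ and 8 of 13 in Arg1- cells than in post-TBI monocytes, and none was lower by limma, with 1 and 0 lower at an unadjusted p under 0.05. Isg15, a ubiquitin-like protein that interferon induces, was higher by 2.10 ± 0.23 and 2.19 ± 0.23 (limma adjusted p = 4.77e-06 and 5.06e-06). Between the blood groups none of the 13 was called by limma, while 7 were lower and 0 higher at an unadjusted p under 0.05, and the median was -0.67. Between the brain groups none was called, with 1 lower at an unadjusted p under 0.05. The share of all genes that passed this unadjusted threshold was not counted, so these counts cannot be set against it. Against post-TBI monocytes the median of the type I list was 0.97 in Arg1+ and 1.19 in Arg1- cells. That of the gamma list was -0.91 and -0.43. Between the brain groups the medians of the type I and gamma lists were -0.13 and -0.4, and between the blood groups -0.67 and -0.25. Cxcl10 was also below 0 in those 2 comparisons, but it was called in neither. The part of either pathway in Cxcl9 and Cxcl10 was not tested.

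Enzymes that shed or cut these chemokines, 9 measured of 10, differed in both directions. Dpp4, which clips and weakens Cxcl10 and Cxcl12, was lower in Arg1+ than in Arg1- cells (-2.97 ± 0.32, limma adjusted p = 8.28e-05) and lower than in post-TBI monocytes in Arg1+ (-4.36 ± 0.34) and Arg1- cells (-1.39 ± 0.34). Mmp12, macrophage elastase, was higher in Arg1+ than in Arg1- cells (1.43 ± 0.22, limma adjusted p = 0.00158). Over other settings the Dpp4 difference between the brain groups ran from -4.01 to -1.03 with its call kept, and that of Mmp12 from 0.63 to 1.58 with its call lost in 1. Mmp14, a membrane-bound matrix protease, was higher than in post-TBI monocytes by 6.15 ± 0.18 in Arg1+ and by 5.82 ± 0.18 in Arg1- cells (limma adjusted p = 4.59e-12 and 1.33e-11). It was also the 1 gene of this list called between the blood groups (1.19 ± 0.19, limma adjusted p = 0.0241), a call lost in 11 of 25 other settings with values down to 0.37.

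Among 6 proteoglycans and matrix proteins that hold chemokines, none was called between the brain groups, with 1 higher at an unadjusted p under 0.05. Vcan was the 1 called between the blood groups (1.96 ± 0.29, limma adjusted p = 0.0134), a call lost in 7 of 25 other settings. Against post-TBI monocytes Arg1+ cells had 4 of 6 higher and 1 lower, and Arg1- cells had 3 higher and 1 lower. Among all genes 19.9% and 17% were called higher there. Sdc1, a heparan sulfate proteoglycan, was higher by 4.16 ± 0.21 in Arg1+ cells and by 3.97 ± 0.21 in Arg1- cells (limma adjusted p = 8.08e-10 and 2.7e-09), with values down to 2.16 and 2.08 in other settings and both calls kept.

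**Figure D5:**
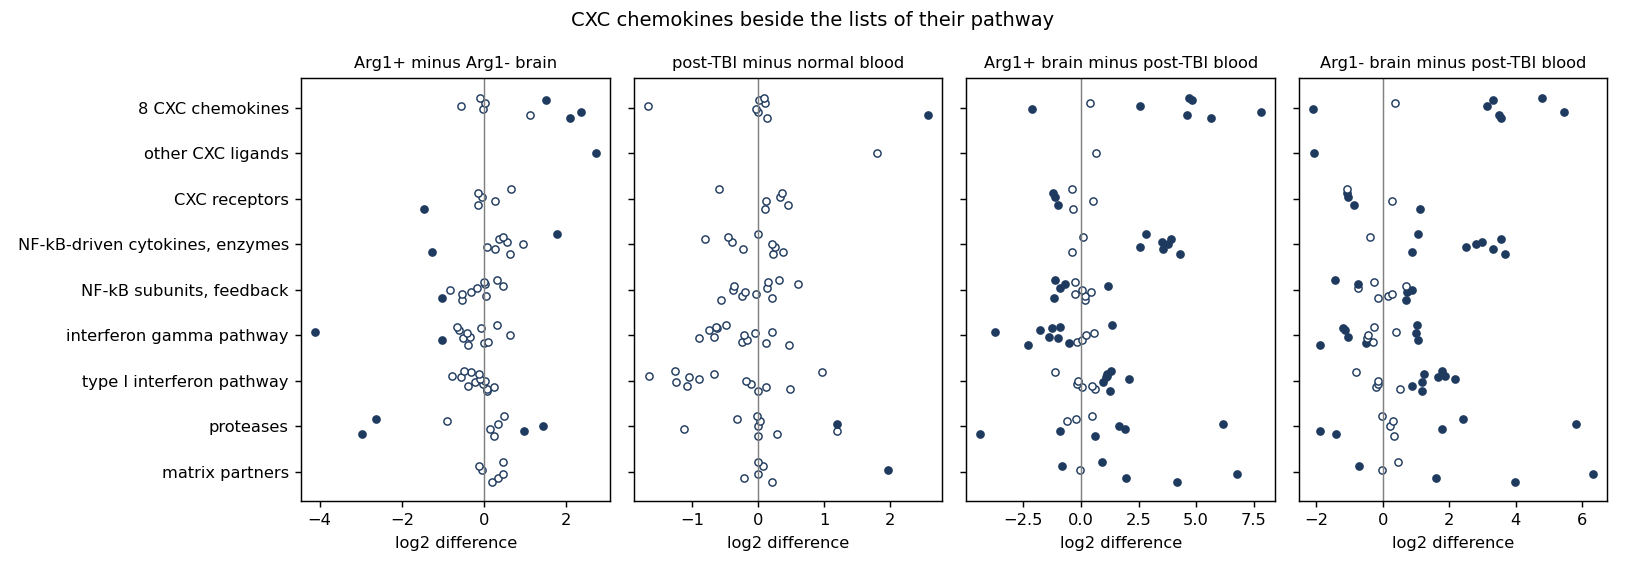
Fitted log2 differences (x axis) of the 8 members and of the measured genes on 8 lists of their pathway (rows) in the 4 comparisons, 1 point per gene, filled where the adjusted p was under 0.05. Against post-TBI blood, NF-kB-driven cytokines and enzymes lie mostly to the right, with 7 and 8 of 9 filled, as do 6 of the 8 chemokines.

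The genes closest in pattern to each member were found by the mean absolute difference of centred log2 levels over the 14 arrays, as a description. Closest to Cxcl3 were Hyal1 (0.33), Lhfpl2 (0.48) and Inhba (0.52), and near Cxcl1 were Cav1 (0.39) and Tmeff1 (0.49). Closest to Cxcl2 were Rab3il1 (0.49), Ier3 (0.52) and Ednrb (0.53). Cxcl14 lay closest to Gdpd1 (0.16), Igf2bp2 (0.25) and Tmeff1 (0.30), so Tmeff1 was near 2 members. Like Cxcl14, Gdpd1 averaged 0.64 in Arg1+ cells, -1.18 in Arg1- cells and the floor in both blood groups.

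Cxcl10 lay closest to Oasl1 (0.27), an interferon-induced gene, then to Slc10a1 (0.49) and Isg15 (0.49). Oasl1 averaged 2.05 in Arg1+ cells, 2.47 in Arg1- cells, -0.57 in post-TBI monocytes and 0.69 in normal monocytes. Closest to Cxcl9 were Gbp3 (0.33), an interferon-induced GTPase, Ip6k3 (0.35) and Brca2 (0.37). Closest to Cxcl16 were Sh3pxd2b (0.23), Flrt3 (0.25) and Slc1a2 (0.27), which is also on the astrocyte list, and closest to Cxcl12, mostly at the floor, were Acss3 (0.13), Kcna2 (0.15) and Elavl3 (0.15). None of the genes named here as nearest to a member was another member.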

How the data were processed

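Per the file headers, Feature Extraction 10.7.3.1 wrote the spot tables, whose deposited columns used here are a background-subtracted intensity, the median signal and background of each spot as an intensity, and other columns that mark a spot with 0 or 1. The authors' own log2 values came as another table, with array medians of 6.16 to 6.19. Its direction is known because its values rank spots on each array as the median signal does (rank correlation 1), while its normalization is not given in the sources used here beyond limma, named in the submitters' processing notes.

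Processed intensities were divided by each array's 75th percentile over non-control spots, raised to at least 0.05 and put on a log2 scale. Spots marked as outliers were set missing. Probes usable on at least 2 arrays of each group and well above background on at least 3 of 14 arrays were kept (27605 of 41174). They were named through RefSeq accessions (GRCm38.p6; 24844 of 41174 probes), with the brightest kept probe for each symbol. Probes of close paralogs such as Cxcl1, Cxcl2 and Cxcl3 can take up each other's RNA. All 14 arrays entered 1 limma 3.58.1 fit on 4 groups (R 4.3.3), with a trend of the variance on intensity and 10 residual degrees of freedom. Tests were two-sided, Benjamini-Hochberg adjustment ran over 21967 genes in each comparison, and a call means an adjusted p under 0.05. Counts at an unadjusted p under 0.05 stand without a share of all genes, which was not taken. The 4 ligand pairs were tested by exact permutation. Slides came from the scanner files, and arrays of 1 slide were compared with each other and with the slide as a block.

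Precision is limited by having 3 or 4 arrays in a group. On simulated data with 200 of 21967 genes changed, a log2 change of 2 was called for 90% of genes between the brain groups and 83% between the blood groups, and a log2 change of 1 for 42% and 38%. The simulated noise was normal and independent between arrays, with no floor and no slide effect. These shares may therefore not hold for the real arrays, least of all for genes near the floor. The members, the gene lists and the marker lists were chosen with earlier results of these data known. Named genes are all members, the measured CXC ligands and receptors, at most 3 called genes with the largest change from each other list, and the 3 genes nearest in pattern to each member, of which 1 is not reported here. Markers are named where a call or the lack of signal turns on them. Alternatives changed the normalization, background correction, dim-probe filter, floor, probe rule, block and arrays fitted, 1 at a time.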

Additional observations from a re-analysis of the deposited data

Results flagged for a closer look

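A sample far from the others in a group of 4 was looked for among the members and the other CXC genes, in 27 gene and group combinations, of which 4 were marked. Chance marks about 1 in 20 of untied values, a rate that does not hold for values cut at the floor. The marks of Cxcl9, Cxcr3 and Cxcr5 below follow from that cut, since the other arrays were at the floor or next to it. Cxcl2 was at 4.52 on Arg1+ replicate 1, against 3.18 on the nearest other Arg1+ array. Cxcl9 was at -4.19 on Arg1- replicate 4 with the other 3 arrays at the floor, and it was not well above background there. Cxcr3 was at -3.75 on Arg1- replicate 3, against -4.31 on the nearest other Arg1- array. Cxcr5 was at -4.08 on Arg1- replicate 4 with the others at the floor.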

How the results depend on the processing

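Over 25 other settings, 14 of which left out 1 array each, member results kept direction and side of the threshold in 575 instances, lost a call in 14, gained 1 and changed sign in 7. Cxcl3 and Cxcl14 stayed called between the brain groups in all 25. Between the brain groups the count of called genes was 1108, 503 after normexp and 602 (without Arg1- replicate 3) to 1790 (without post-TBI replicate 4) when 1 array was left out, with 698 without Arg1+ replicate 3; of the members, 2 to 4 were called. Between the blood groups it was 33, 16 after normexp, 20 in the authors' table, 2 with a replicate block, 0 with only those 6 arrays fitted, and 2 (without post-TBI replicate 3) to 60 (without post-TBI replicate 1) when 1 array was left out, with 54 without normal replicate 3 and 10 without normal replicate 2. The 1 member called there, Cxcl2, became 0 after normexp, in the authors' table, without the dim-probe filter, with the replicate block (adjusted p = 0.0849) and with only those arrays, and 0 to 1 when 1 array was left out. Cxcl1 lost its brain call without the dim-probe filter (adjusted p = 0.0841) and with only the brain arrays (adjusted p = 0.106). The sign turned for Cxcr5, called lower in Arg1+ than in post-TBI cells, which ran from -2.85 to 0.03, the last after normexp. It turned for Cxcl10 minus Cxcl9, from -0.53 as fitted to 0.67 with a floor at 0.01. That pair is void, Cxcl9 being below background in brain. The other signs that turned were of fitted values nearer 0. These were Cxcl3 minus Cxcl1 (-0.15 to 0.77 when 1 array was left out), Cxcl16 between the brain groups (-0.24 to 0.11) and the blood groups (-0.08 to 0.26), and Cxcl9 between the blood groups (-0.94 to 0.47). The cause was not tested. Same-numbered brain replicates did not deviate together (correlations of -0.46 to 0.40 over 4 pairs). The blood groups share 2 numbers (correlations of 0.21 and 0.35), too few to settle whether these pair the samples. Arrays of the same slide had correlations of 0.04 to 0.59 over 4 brain pairs and 0.13 to 0.35 over 3 blood pairs. The main fit had no block. With the replicate block 833 genes were called between the brain groups, and with the slide block 1502.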
